A study of Mus musculus with 12 samples.

Results

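The MHC class II genes and Cd83 are a set of 10 genes measured here in splenic B cells that could lose 0, 1 or 2 alleles of the repressor gene Bcl6. The 10 genes were taken by gene symbol from the array annotation: H2-Aa, H2-Ab1, H2-Eb1, H2-Eb2, H2-DMa, H2-Oa, H2-Ob, Cd74, Ciita and Cd83. They were selected on earlier results from the same 12 arrays, in which H2-Eb2 and Cd83 differed between homozygous deletion and wild-type, so that difference is described here with no test. All 10 were among the 18194 genes on the array and among the 9307 tested ones, those that reached 4 on the log2 scale (where 1 unit is a doubling of signal) on 2 or more of the 12 arrays. Each gene is given by the probe set (a group of short probes for 1 transcript) with its highest mean over the arrays. The 10 genes had 18 probe sets in all, with more than 1 for H2-Aa, H2-Ab1, H2-DMa and Ciita.

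The 12 Affymetrix arrays fell into 6 groups of 2. They held marginal zone (MZ) cells, sorted as B220+AA4.1-CD21highCD23low, and follicular (FO) cells, sorted as B220+AA4.1-CD21intCD23+, of 3 genotypes: mb1-cre(+/-)Bcl6(flox/flox), called hom here, mb1-cre(+/-)Bcl6(+/flox), called het, and mb1-cre(+/-)Bcl6(+/+), called WT. All mice were female C57BL/6 aged 10 weeks, and the WT mice carried the mb1-cre allele too. That allele expresses Cre recombinase in the B lineage from an early stage, so deletion precedes the mature cells sorted here. Before sorting, magnetic depletion removed cells with T cell antigens (CD3, CD90, CD5), myeloid antigens (among them Gr-1 and CD11b), the erythroid antigen TER119, the plasma cell antigen CD138, or CD95 or CD43. The labels do not tell whether both arrays of a group hold separate mice, or whether MZ and FO cells share mice. The p-values here therefore cover the spread from array to array, and that spread could be technical.

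MHC class II molecules are pairs of an alpha and a beta chain that B cells use to show peptides from internalised antigen to CD4+ T cells. Cd74 encodes the invariant chain, which holds new class II molecules until they reach endosomes. There H2-DM, of which H2-DMa encodes the alpha chain, exchanges the last piece of the invariant chain for peptide, and H2-O, encoded by H2-Oa and H2-Ob, restrains H2-DM in B cells. Ciita encodes the coactivator on which transcription of these genes depends. It has no DNA-binding role of its own there and is held at promoters by factors bound to short boxes named X and Y. CD83 is a surface protein of activated B cells and dendritic cells that opposes the ubiquitin ligase MARCH1, which removes class II and CD86 from the surface. C57BL/6 mice make A molecules (H2-Aa with H2-Ab1) but no E molecules, since their E alpha gene is defective. The annotation lists that gene, H2-Ea, as a transcribed pseudogene, and its values were 3.31 to 5.12 over the 12 arrays. H2-Eb1 encodes the E beta chain and H2-Eb2 a related beta chain.

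The members named H2 lie together on mouse chromosome 17 in the RefSeq annotation of GRCm38.p6. H2-Oa spans chr17:34092379-34095234, H2-DMa chr17:34119693-34139101, H2-Ob chr17:34238905-34245908, H2-Ab1 chr17:34263227-34269418 and H2-Aa chr17:34282744-34287823. H2-Eb1 spans chr17:34305867-34316674 and H2-Eb2 chr17:34325503-34341410. The RefSeq promoter table, with windows of 250 bases before to 50 after a start, held 6 members: H2-Aa, H2-Eb1, H2-Eb2, H2-DMa, H2-Oa and H2-Ob. The stretches below are shown because they carry the letters of the X and Y boxes in 5 of these 6, and because H2-Eb1 and H2-Eb2, which have them at the same spacing, differed between genotypes to unlike extents. Capitals mark GCAAC, taken for the X box, and GATTGG, taken for the Y box. Each is written 5′ to 3′ on the strand of its gene.
H2-Aa: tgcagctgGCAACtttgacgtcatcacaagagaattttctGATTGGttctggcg
H2-Eb1: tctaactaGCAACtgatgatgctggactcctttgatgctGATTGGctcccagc
H2-Eb2: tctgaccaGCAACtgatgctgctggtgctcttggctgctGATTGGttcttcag
H2-Oa: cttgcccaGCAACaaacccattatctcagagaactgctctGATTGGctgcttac
H2-Ob: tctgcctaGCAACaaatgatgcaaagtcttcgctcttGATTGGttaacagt

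The stretches lie at chr17:34287859-34287912 on the minus strand for H2-Aa and, on the plus strand, at chr17:34305768-34305820 for H2-Eb1, chr17:34325535-34325587 for H2-Eb2, chr17:34092295-34092348 for H2-Oa and chr17:34238810-34238860 for H2-Ob. Between the capitals were 27 bases in H2-Aa and H2-Oa, 26 in H2-Eb1 and H2-Eb2 and 24 in H2-Ob. Of all 32851 windows in the table, 35.2% held GCAAC and 16.1% held GATTGG on either strand, and the motifs do not overlap. GCAAC followed by GATTGG on the same strand, 10 to 40 bases on, was in 0.502% of windows. The H2-DMa gene has 2 windows there, 1 with GCAAC alone and 1 with GATTGG alone. A match says that the letters are present, not that a factor is bound.

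The targeted gene did not settle the genotype labels. One Bcl6 probe set read 9.95 and 10.37 in MZ hom, 9.44 and 9.38 in MZ het and 8.29 and 8.81 in MZ WT arrays, and 12.70 and 12.88 in FO hom, 11.91 and 12.11 in FO het and 11.95 and 11.65 in FO WT arrays, so it was highest in hom arrays. The other read 2.36 and 2.48 in FO hom, 4.93 and 4.86 in FO het and 4.94 and 5.61 in FO WT arrays and was at the minimum in MZ cells. Neither probe set checks the labels, because the position of the probes relative to the floxed exons is unknown here.

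The markers followed the cell type labels. The mean of 7 measured MZ markers was 11.85 to 12.56 on MZ arrays and 7.86 to 8.36 on FO arrays, and Fcer2a, which encodes CD23, was at 8.85 to 9.50 on MZ and 13.63 to 14.25 on FO arrays. Of the other cells that carry class II, dendritic cells were followed by 8 measured markers, of which 2 reached 4 on any array. These were Cst3, at 11.24 to 11.55 on MZ and 11.97 to 12.60 on FO arrays, and Flt3, at 4.41 to 7.15. Cst3 was at 11.36 and 11.24 in MZ hom and 11.55 and 11.48 in MZ WT arrays. In FO cells it was at 12.49 and 12.60 in hom and 11.97 and 12.27 in WT arrays. Itgax, Xcr1, Cd209a and Siglech were at 2.48 or less on every array, near the minimum of the table (2.22 in MZ and 2.21 in FO arrays). Batf3 was at 2.25 to 2.53, and Zbtb46 was at 3.82 on FO het replicate 2 and at 2.25 or less on the others. Of 8 macrophage and monocyte markers 5 reached 4 on any array, and that list averaged 3.47 to 4.57 on MZ and 3.17 to 4.04 on FO arrays. The highest of them by mean, Cd68, was at 6.80 to 7.85 on MZ and 4.19 to 6.13 on FO arrays. The MZ WT replicate 1 array stood apart: its Gapdh control read 6.90 log2 units higher at the 3' than at the 5' end, against -0.20 to 0.63 on the other 11 arrays. Where a call, a direction or a value of a member or named pathway gene moved markedly without this array, the value without it is given, from a model in which the other MZ WT array is assumed to vary like the other groups.

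With homozygous deletion, H2-Eb2 and Cd83 were the members with the largest negative differences from WT, in MZ and in FO cells alike. By the probe sets that represent them, H2-Aa, H2-Ab1, H2-Eb1, Cd74 and H2-DMa stayed within 0.15 log2 units of WT in both. In FO cells their other probe sets were all negative. H2-Aa had -0.141 ± 0.498, -0.24 ± 0.074 and -0.66 ± 0.391, H2-Ab1 -0.082 ± 0.445 and -0.227 ± 0.41, and H2-DMa -0.447 ± 0.215 (SE). Negative values were seen for 7 of 10 members in MZ cells (median -0.04), where 60.8% of the 9307 tested genes were negative (median -0.08). Without MZ WT replicate 1, H2-Eb1 (-0.056), H2-DMa (-0.113) and Ciita (-0.082) turned negative in MZ cells and Cd74 turned positive (0.077). The share of all tested genes was not computed without that array. In FO cells all 10 members were negative (median -0.15), where 49.8% of the tested genes were (median 0). These are descriptions, since the members were chosen with this difference known. In bulk samples a smaller share of positive cells and less RNA per cell cannot be told apart.

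Cd83, whose protein opposes the removal of class II from the surface, had log2 values of 10.57 and 10.62 in MZ hom arrays, 10.77 and 10.94 in MZ het arrays and 11.84 and 11.44 in MZ WT arrays. In FO cells its values were 11.67 and 11.67 in hom, 12.23 and 12.56 in het and 12.62 and 12.48 in WT arrays. In each cell type the hom arrays were below every het and WT array. The het arrays lay near hom in MZ cells, below both MZ WT arrays, and near WT in FO cells, where het and WT overlapped. The hom minus WT difference was -1.04 ± 0.18 (SE; 2.06-fold lower) in MZ and -0.88 ± 0.18 (1.84-fold lower) in FO cells. The hom minus het difference was -0.26 ± 0.18 in MZ and -0.72 ± 0.18 in FO cells. Without MZ WT replicate 1 the MZ hom minus WT difference was -0.84. From low to high the group means ran MZ hom, MZ het, MZ WT, FO hom, FO het, FO WT. MZ WT and FO hom, and FO het and FO WT, were neighbours whose arrays overlapped.

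H2-Eb2 was likewise lowest in hom cells. Its values were 8.79 and 9.21 in MZ hom, 9.87 and 9.79 in MZ het and 9.93 and 9.92 in MZ WT arrays. In FO cells they were 9.19 and 9.50 in hom, 9.93 and 10.31 in het and 10.55 and 10.53 in WT arrays. Here too every hom array was below every het and WT array of its cell type. Hom minus WT was -0.92 ± 0.20 (1.90-fold lower) in MZ and -1.19 ± 0.20 (2.29-fold lower) in FO cells, and hom minus het was -0.83 ± 0.20 in MZ and -0.77 ± 0.20 in FO cells. The MZ het arrays lay just below the MZ WT arrays, and the FO het arrays between FO hom and FO WT. From low to high the means ran MZ hom, FO hom, MZ het, MZ WT, FO het, FO WT, and of these neighbours the arrays of MZ hom and FO hom overlapped, while the highest MZ WT and the lowest FO het array were both at 9.93.

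By their representative probe sets the classical chain genes did not share this. H2-Eb1, whose promoter carries the same spacing of GCAAC and GATTGG as H2-Eb2, was at 14.88 and 14.93 in MZ hom and 14.78 and 14.96 in MZ WT arrays, and at 14.95 and 15.08 in FO hom and 15.05 and 15.17 in FO WT arrays. Its hom minus WT difference was 0.04 ± 0.16 in MZ and -0.10 ± 0.16 in FO cells, and the groups overlapped in each. H2-Aa differed by -0.00 ± 0.18 in MZ and -0.10 ± 0.18 in FO cells, and H2-Ab1 by -0.12 ± 0.15 and -0.12 ± 0.15. For Cd74 the differences were -0.05 ± 0.16 in MZ and -0.15 ± 0.16 in FO cells, and for H2-DMa 0.00 ± 0.24 and -0.11 ± 0.24. H2-Aa, H2-Ab1, H2-Eb1 and Cd74 had values between 14.29 and 15.42 on all arrays, in a table whose highest value was 16.78.

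Of the H2-O genes, H2-Ob was at 13.25 and 13.46 in MZ hom, 13.85 and 13.90 in MZ het and 13.48 and 13.74 in MZ WT arrays. The hom arrays were lowest and the het arrays highest, so the het values did not fall between hom and WT. In FO cells H2-Ob was at 14.38 and 14.40 in hom, 14.44 and 14.55 in het and 14.62 and 14.47 in WT arrays, a narrow order with het and WT overlapping. Hom minus WT was -0.26 ± 0.15 in MZ cells (-0.38 without MZ WT replicate 1) and -0.15 ± 0.15 in FO cells. H2-Oa was at 12.43 and 12.67 in FO hom and 12.76 and 13.00 in FO WT arrays, which did not overlap (difference -0.33 ± 0.18), and at 12.41 and 12.67 in MZ hom and 12.50 and 12.65 in MZ WT arrays, which did (-0.03 ± 0.18).

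**Figure D1:**
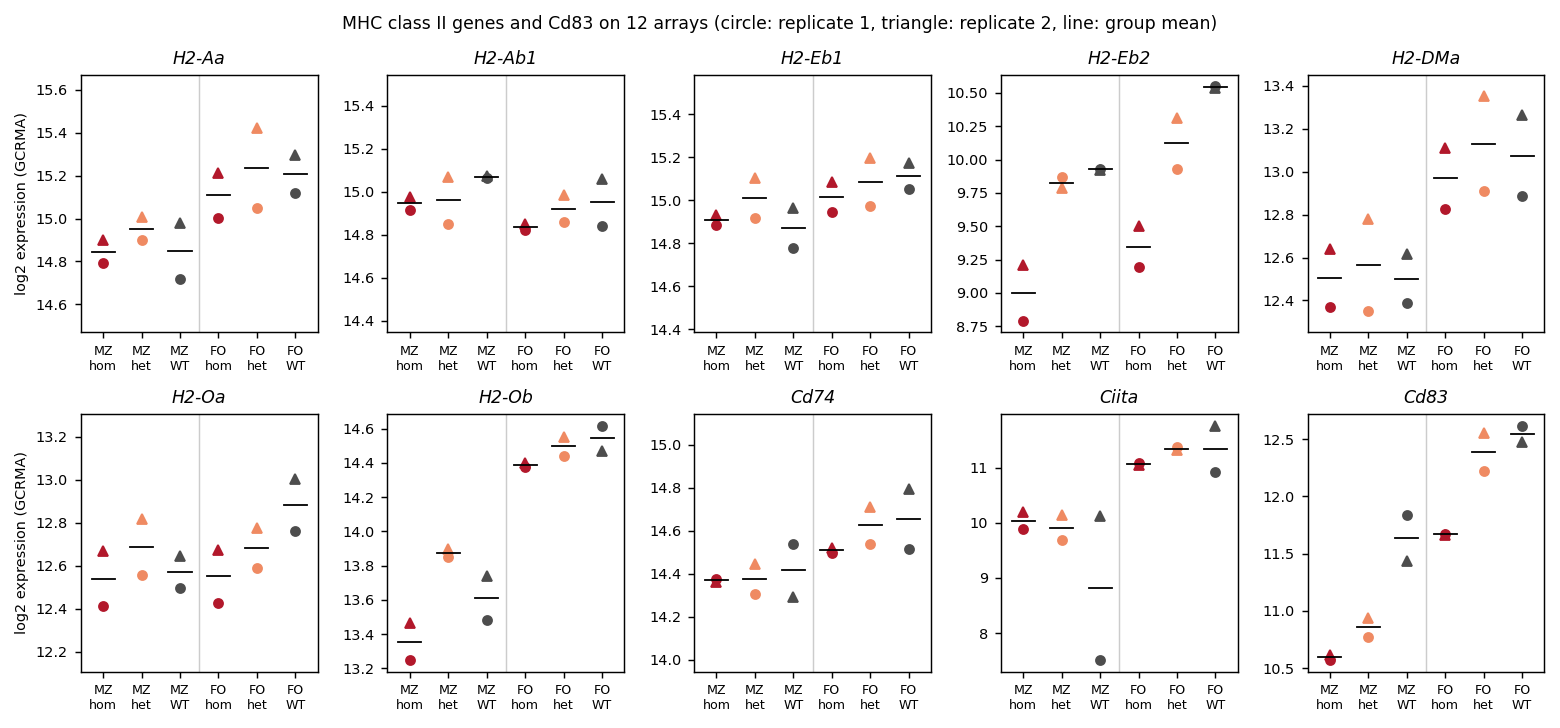
Log2 expression of each of the 10 genes (y axis, a scale of its own per gene) on the 12 arrays, grouped along the x axis as MZ hom, het and WT and FO hom, het and WT, with replicate 1 as a circle, replicate 2 as a triangle and the group mean as a line. In Cd83 and H2-Eb2 both hom arrays lie below every het and WT array of the same cell type, and in Ciita MZ WT replicate 1 lies at 7.51, below all other arrays.

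Ciita values depended on 1 array. The gene was at 9.89 and 10.20 in MZ hom, 9.69 and 10.14 in MZ het and 7.51 and 10.12 in MZ WT arrays, and at 11.10 and 11.06 in FO hom, 11.37 and 11.32 in FO het and 10.92 and 11.77 in FO WT arrays. The value of 7.51 came from MZ WT replicate 1, the array with the low 5' control signal, and all other MZ arrays lay between 9.69 and 10.20. The hom minus WT difference in MZ cells was 1.22 ± 0.69 with that array and -0.08 without it. In FO cells it was -0.27 ± 0.69.

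Markers of activation and of other cells were set beside these differences, and their part in them was not tested. The mean of 24 immediate early and activation genes was 11.59 and 10.23 in MZ hom, 8.60 and 10.10 in MZ het and 11.61 and 10.52 in MZ WT arrays. In FO cells it was 11.81 and 10.81 in hom, 11.61 and 10.59 in het and 9.62 and 11.63 in WT arrays. The hom arrays overlapped with the WT arrays in both cell types, and the MZ het arrays were below both MZ WT arrays, as they were for Cd83. The neutrophil list was at 6.95 and 2.31 in FO hom, 5.04 and 2.31 in FO het and 2.29 and 2.30 in FO WT arrays. In MZ cells it was at 4.93 and 2.28 in hom, 2.31 and 2.29 in het and 5.71 and 2.28 in WT arrays. It was thus raised on single arrays, each of them a replicate 1, and near the minimum on all others. The FO hom and FO WT arrays did not overlap, but only 1 of them was raised. The dendritic cell list averaged 3.79 and 3.66 in MZ hom and 3.97 and 3.74 in MZ WT arrays, and 4.08 and 3.88 in FO hom and 3.85 and 3.88 in FO WT arrays. The macrophage and monocyte list averaged 4.33 and 3.47 in MZ hom and 4.57 and 3.52 in MZ WT arrays, and 3.90 and 3.35 in FO hom and 3.92 and 3.17 in FO WT arrays. The mean of 7 B cell genes was 12.04 and 12.48 in MZ hom against 12.25 and 12.67 in MZ WT arrays, and 12.43 and 12.45 in FO hom against 12.40 and 12.89 in FO WT arrays. For these last 3 lists the hom arrays overlapped with the WT arrays of the same cell type.

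**Figure D2:**
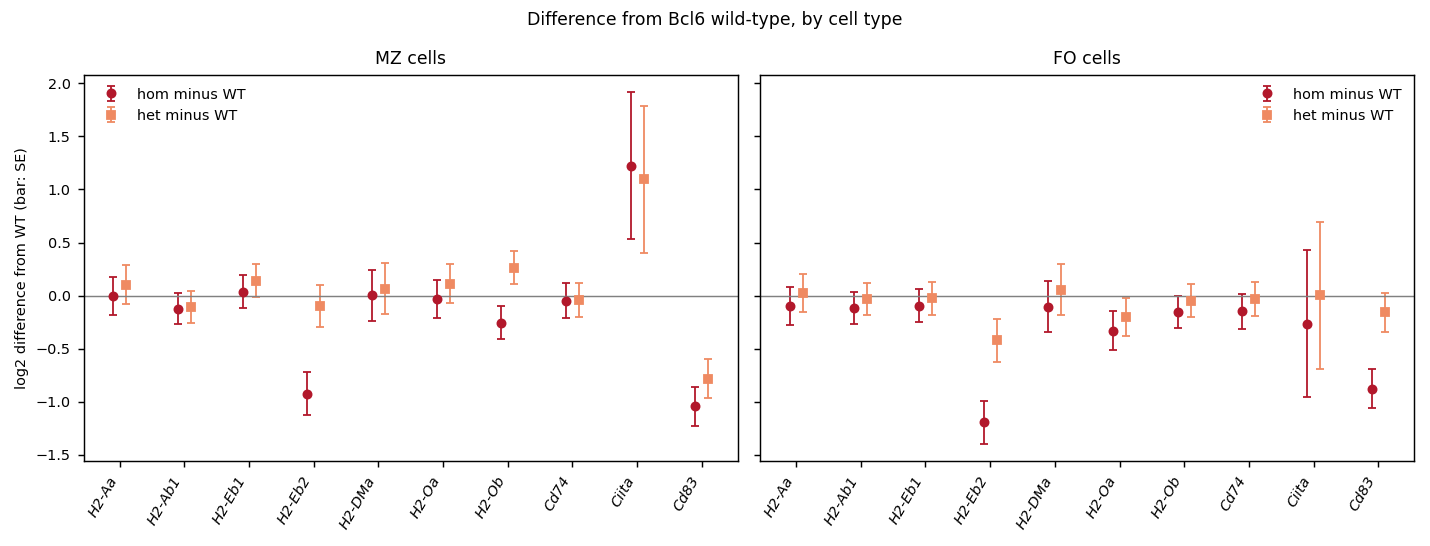
Log2 difference from WT (y axis) for each gene in MZ cells (left) and FO cells (right), with hom minus WT as circles, het minus WT as squares and bars of 1 SE from the model over all 12 arrays. H2-Eb2 and Cd83 lie near -1 with homozygous deletion in both panels, and Ciita, with MZ WT arrays at 7.51 and 10.12, has the widest bars.

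Loss of 1 allele was tested, with the reservation that it shares the WT arrays with the difference that chose the members. In MZ cells 0 of 10 members passed (limma adjusted p under the threshold of 0.05), against 0.0107% of all tested genes, and 1 member had p under 0.05 before adjustment. That member was Cd83, with a het minus WT difference of -0.78 ± 0.18 (limma adjusted p = 0.792), lower in both het arrays than in both WT arrays. The immediate early and activation list was lower in the same way, at 8.60 and 10.10 in MZ het against 11.61 and 10.52 in MZ WT arrays, and its part in the difference was not tested. Without MZ WT replicate 1 the difference was -0.58, and without replicate 2, which leaves the array with the low 5' signal alone, it was -0.98 (limma adjusted p = 0.0395). Ciita in MZ cells was at 1.10 ± 0.69 (limma adjusted p = 0.792), which became -0.21 without MZ WT replicate 1 and 2.40 without replicate 2 (limma adjusted p = 0.0185). In FO cells 0 of 10 members passed, against 0% of all tested genes, and none had p under 0.05 before adjustment. The largest FO difference was that of H2-Eb2, at -0.42 ± 0.20 (limma adjusted p = 1), with both het arrays below both WT arrays.

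The difference between MZ and FO cells in the effect of homozygous deletion was tested as an interaction. It is made of the hom minus WT differences of both cell types, which were known when the members were chosen, so the choice may bear on it. The interaction passed for 0 of 10 members, against 0.0107% of all tested genes (limma), and 0 members had p under 0.05 before adjustment. For Cd83 the deletion effect in MZ minus that in FO cells was -0.16 ± 0.26 (0.04 without MZ WT replicate 1) and for H2-Eb2 it was 0.27 ± 0.28 (limma adjusted p = 0.975 for each). A p that misses the threshold does not show that the effects were alike. For Ciita it was 1.49 ± 0.98 (limma adjusted p = 0.975), and 2.80 without MZ WT replicate 2 (limma adjusted p = 0.0423) but 0.18 without replicate 1.

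Between the cell types, Cd83 and H2-Ob were lower in MZ than in FO cells in all 3 genotypes, a comparison in which the members were not chosen. In WT cells 3 of 10 members were lower and 0 higher, against 11.5% and 10.7% of all tested genes (limma). In het cells 2 were lower, against 13.3%, and 0 higher, against 9.94%. In hom cells 2 were lower, against 10.8%, and 0 higher, against 8.27%. The minimum of the table differed between MZ and FO arrays, and a difference in how both sets were normalised cannot be told apart from the cell type. The median over all genes was -0.18 in hom, -0.17 in het and -0.12 in WT cells. After quantile normalisation of all 12 arrays together it was 0.03, 0.07 and 0.05. Relative to these medians the shifts of Cd83 and H2-Ob kept their direction.

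H2-Ob, the beta chain of H2-O, averaged 13.36 ± 0.15 in MZ and 14.39 ± 0.02 in FO hom cells (SD, n = 2 each), a fall by 1.03 ± 0.15 (SE; 2.05-fold; limma adjusted p = 0.00209). In het cells it averaged 13.87 ± 0.03 in MZ and 14.50 ± 0.08 in FO cells and fell by 0.62 ± 0.15 (limma adjusted p = 0.0211). In WT cells the means were 13.61 ± 0.18 and 14.54 ± 0.11 and the fall by 0.93 ± 0.15 (limma adjusted p = 0.00315). All 6 MZ arrays, at 13.25 to 13.90, lay below all 6 FO arrays, at 14.38 to 14.62. The het call was lost without any 1 of the 4 het arrays (limma adjusted p = 0.0632 and 0.101 without FO het replicates 1 and 2, 0.107 and 0.0707 without MZ het replicates 1 and 2), and the WT and hom calls held without each array in turn. Without MZ WT replicate 1 the WT difference was -0.80 (limma adjusted p = 0.0176). With the spread taken from the 4 WT arrays alone, the WT call was lost (limma adjusted p = 0.0928). After quantile normalisation the het difference was -0.47 (limma adjusted p = 0.0868). Its partner H2-Oa did not pass in any genotype, with differences of -0.01 ± 0.18 in hom, 0.00 ± 0.18 in het and -0.31 ± 0.18 in WT cells (limma adjusted p = 0.98, 0.989 and 0.265), and after quantile normalisation the hom difference was 0.19.

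Cd83 averaged 10.59 ± 0.03 in MZ and 11.67 ± 0.01 in FO hom cells (SD, n = 2 each) and fell by 1.08 ± 0.18 (SE; 2.11-fold; limma adjusted p = 0.00416). In het cells the means were 10.86 ± 0.11 in MZ and 12.39 ± 0.23 in FO cells, a fall by 1.53 ± 0.18 (2.90-fold; limma adjusted p = 5.38e-04). In WT cells they were 11.64 ± 0.28 and 12.55 ± 0.10, a fall by 0.91 ± 0.18 (1.88-fold; limma adjusted p = 0.00858). Within each genotype both MZ arrays were below both FO arrays, and the MZ WT arrays overlapped with FO hom. The WT call was lost without FO WT replicate 1 and with the 4 WT arrays alone (limma adjusted p = 0.0514 and 0.121). The immediate early and activation list was at 8.60 and 10.10 in MZ het against 11.61 and 10.59 in FO het arrays, which did not overlap, while its MZ and FO arrays overlapped in hom and in WT. Its part in the differences of Cd83 was not tested.

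The other members gave no stable call. Ciita fell by 2.52 ± 0.69 in WT cells (limma adjusted p = 0.0322), a call lost without MZ WT replicate 1 (difference -1.22, limma adjusted p = 0.0556). In hom and het cells its differences were -1.03 ± 0.69 and -1.43 ± 0.69 (limma adjusted p = 0.358 and 0.174), with the MZ arrays below the FO arrays in each. Without either MZ WT array, which lowers the spread that all groups share, these passed (limma adjusted p = 0.0395 in hom and 0.0101 in het). The WT call was also lost without any other single array except MZ WT replicate 2 (limma adjusted p from 0.0509 to 0.158). H2-Eb2 was at -0.62 ± 0.20 in WT cells (limma adjusted p = 0.0606), and H2-DMa at -0.46 to -0.57 in the 3 genotypes (limma adjusted p from 0.129 to 0.233), with MZ below FO arrays throughout. With the replicate number as a block H2-DMa passed in all 3 genotypes (limma adjusted p = 0.0336 in hom, 0.0143 in het and 0.0134 in WT). H2-DMa was lower on replicate 1 than on replicate 2 in all 6 groups, by 0.23 to 0.44. Over all tested genes, deviations of same-numbered arrays correlated above 0.1 in 8 of 15 pairs of groups. What the number stands for is not given. H2-Aa was at 14.72 to 15.00 on the 6 MZ and 15.00 to 15.42 on the 6 FO arrays, and its differences of -0.26 to -0.36 did not pass (limma adjusted p from 0.198 to 0.373). With the mean over its 4 probe sets the WT difference was -0.84 (limma adjusted p = 0.0207). That mean includes a probe set at 12.99 on MZ WT replicate 1 against 14.72 on replicate 2, and it was not refitted without that array. H2-Ab1, H2-Eb1 and Cd74 differed by 0.04 to 0.12, by -0.24 to -0.07 and by -0.25 to -0.14 (limma adjusted p of 0.305 or more for each). The direction for H2-Ab1 depended on the probe set, since the mean over its 3 probe sets gave -0.18 in hom, -0.23 in het and -0.65 in WT cells (limma adjusted p = 0.718, 0.572 and 0.135). The WT value leaned on MZ WT replicate 1, where probe sets other than the representative were below replicate 2 (gaps of -1.42 and -1.40).

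**Figure D3:**
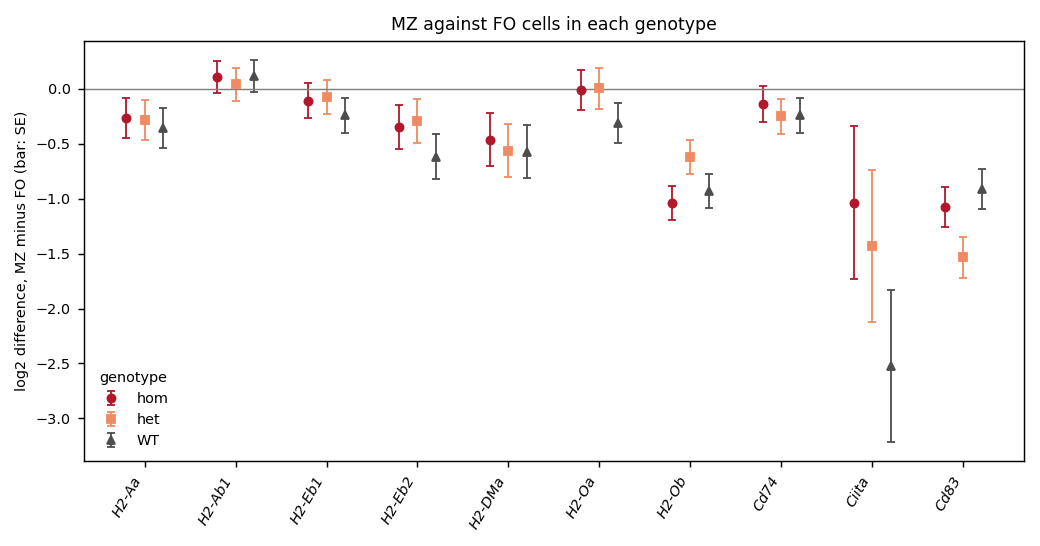
Log2 difference between MZ and FO cells (y axis, MZ minus FO) for each gene in hom (circles), het (squares) and WT (triangles), with bars of 1 SE. Cd83 and H2-Ob lie below 0 in all 3 genotypes, and Ciita has the widest bars.

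The other genes of the pathway were taken from a list of 28, of which 27 were on the array and 26 tested. In WT cells 6 of 26 were higher and 3 lower in MZ than in FO cells, in het cells 6 higher and 7 lower, and in hom cells 6 higher and 1 lower (limma), beside the shares of all tested genes given above. The 6 higher genes include Cd80 in each genotype, whose call follows from the filter as set out below. The higher genes included the ligands that accompany class II at the surface. Cd80, a ligand of CD28, averaged 4.70 ± 0.37 in MZ hom cells, 5.13 ± 0.05 in MZ het and 5.58 ± 0.20 in MZ WT cells, and was at 2.21, at or next to the minimum, on all FO arrays. Cd80 was among the tested genes through its MZ arrays alone, which reached 4 where the FO arrays did not, so the size of its difference is not given and its call is a consequence of that filter and of the minimum. Cd86, the other such ligand and a target of MARCH1, averaged 8.72 ± 0.20 in MZ and 7.59 ± 0.03 in FO hom cells and 9.50 ± 0.11 in MZ and 7.72 ± 0.15 in FO WT cells (SD, n = 2 each), a rise of 1.13 ± 0.19 in hom and 1.78 ± 0.19 in WT cells (SE; limma adjusted p = 0.00322 and 2.45e-04). Cd83 was lower in MZ cells, where Cd86 was higher.

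Of the endosomal proteases, Ctsb rose by 1.36 ± 0.30 in hom, 1.46 ± 0.30 in het and 1.94 ± 0.30 in WT cells (limma adjusted p = 0.0141, 0.00923 and 0.00215), with 1.42 in WT cells without MZ WT replicate 1. Lgmn, which encodes a protease that cuts the invariant chain, rose by 0.84 ± 0.21, 0.91 ± 0.21 and 0.94 ± 0.21 (limma adjusted p = 0.0262, 0.0172 and 0.0141). The tetraspanin genes Cd9 and Cd81 were higher in all 3 genotypes as well, and Cd9 is itself an MZ marker, with differences of 4.0 ± 0.26 in hom, 4.45 ± 0.26 in het and 4.74 ± 0.26 in WT cells. Among the lower genes, Nfyb, a subunit of the factor that binds the Y box, fell by 0.94 ± 0.18 in het cells (limma adjusted p = 0.00702) and was at -0.46 in hom and -0.50 in WT cells (limma adjusted p = 0.124 and 0.0851). The 3 lower genes in WT cells, Ctsh, Marchf1 and Irf8, and the 1 in hom cells, Irf8, are named after their values were seen. Irf8 and Ctsh were also among the 7 lower genes in het cells. Irf8 was at -0.76 in hom, -0.82 in het and -0.84 in WT cells (limma adjusted p = 0.0463, 0.0309 and 0.0281). Ctsh was at -0.54, -0.67 and -0.83 (limma adjusted p = 0.0834, 0.0353 and 0.0143). Marchf1, which encodes the MARCH1 ligase, averaged 11.18 ± 0.34 in MZ and 12.29 ± 0.02 in FO WT cells (SD, n = 2 each) and fell by 1.10 ± 0.30 (SE; limma adjusted p = 0.0308). Its differences were -0.89 in hom and -0.44 in het cells (limma adjusted p = 0.0737 and 0.33). Without MZ WT replicate 1 none of the 3 lower genes in WT cells passed, with -0.86 for Marchf1, -0.59 for Ctsh and -0.85 for Irf8 (limma adjusted p = 0.153, 0.0647 and 0.0888), while 6 were higher as before.

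**Figure D4:**
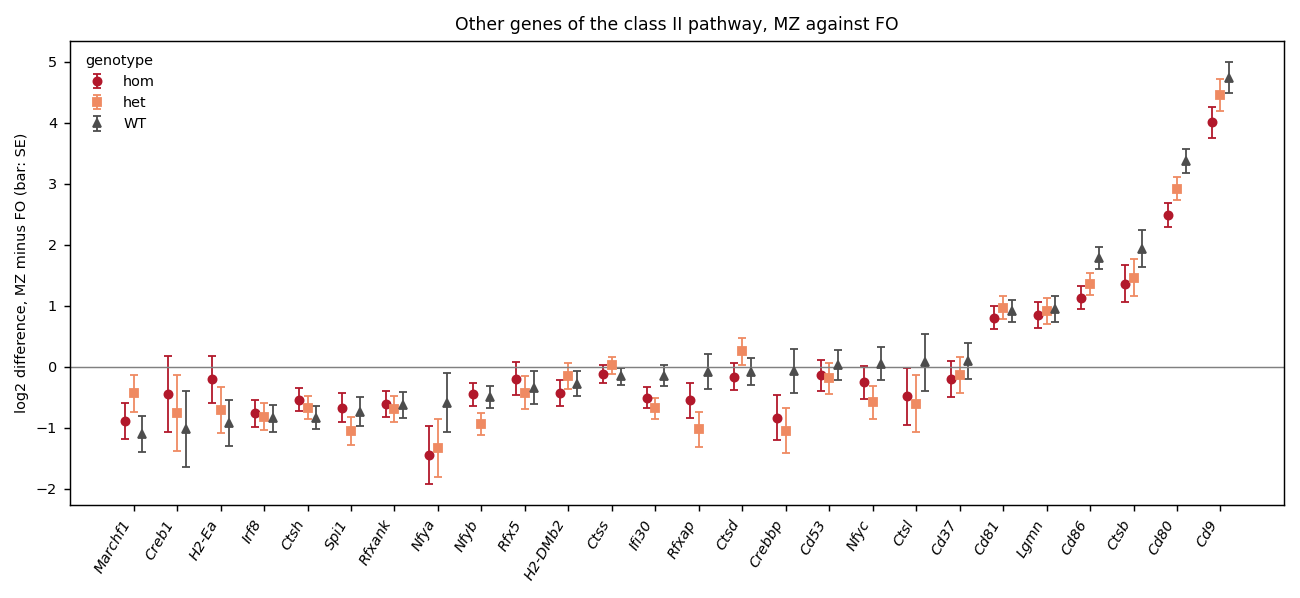
Log2 difference between MZ and FO cells (y axis, MZ minus FO) of the 26 other pathway genes tested, ordered along the x axis by the WT value, in hom (circles), het (squares) and WT (triangles), with bars of 1 SE. Cd81, Lgmn, Cd86, Ctsb, Cd80 and Cd9 lie above 0 in all 3 genotypes, with Cd80 set against FO arrays at or next to the minimum.

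The same 26 genes showed no call for loss of 1 allele in either cell type or for the interaction (limma), with 0 in FO, 3 in MZ and 2 in the interaction at p under 0.05 before adjustment. Their hom minus WT differences had a median of -0.25 in MZ cells, with 22 of 26 negative, and of -0.01 in FO cells, with 14 of 26 negative. The corresponding shares of all tested genes were 60.8% and 49.8%.

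How members varied together was described over the 12 arrays after the mean of each cell type was subtracted. H2-Aa correlated with H2-Eb1 at 0.93, with H2-DMa at 0.90 and with H2-Oa at 0.77, and H2-Eb2 correlated with Cd83 at 0.82. Between Cd83 and H2-Eb1 the value was 0.04 and between Cd83 and Ciita -0.48. On MZ WT replicate 1 Ciita was at 7.51, its lowest value, and Cd83 at 11.84, its highest on MZ arrays. The value for Cd83 and Ciita therefore leaned on that array and was not computed without it. Each genotype is shared by 4 of the arrays, so these correlations are descriptions. H2-Eb2 and Cd83 were chosen with their difference between hom and WT known, and genotype means were not subtracted. Their correlation of 0.82 therefore holds that difference and is no separate evidence that they vary together. H2-Aa, H2-Ab1, H2-Eb1, H2-DMa and H2-Oa were lower on replicate 1 than on replicate 2 in all 6 groups, by 0.23 to 0.44 for H2-DMa and 0.15 to 0.26 for H2-Oa. For H2-Eb2 and Cd83 this held in 3 of 6 groups. The gap between the arrays of a group was therefore as large as or larger than the hom minus WT difference for H2-DMa, while for Cd83 and H2-Eb2 the gaps reached 0.40 and 0.42 against differences near 1. Nothing in the labels says what the replicate number stands for.

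The genes most like Cd83 over the 12 arrays by the same measure were Tpcn1 (r = 0.94), Mbd2 (0.93), Retreg1 (0.93), Chst11 (0.92) and St8sia6 (0.91). Those most like H2-Eb2 were Slc41a2 (0.95), Ublcp1 (0.95), Tnfaip8 (0.94), Samsn1 (0.93) and Cdc42ep3 (0.92). Those most like the mean of H2-Aa, H2-Ab1, H2-Eb1 and Cd74 were Cbx7 (0.94), Ccar2 (0.93), H2-DMa (0.93), Dlgap4 (0.93) and Rtl6 (0.92).

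Probe sets of the same gene disagreed on MZ WT replicate 1. On 6 of the 18 probe sets that array was more than 1 log2 unit below replicate 2. These were all 3 of Ciita (gaps of -2.61, -3.34 and -3.41), 1 of 4 of H2-Aa (-1.73) and 2 of 3 of H2-Ab1 (-1.42 and -1.40). The gaps of the same H2-Aa and H2-Ab1 probe sets in the other 5 groups were -0.37 to -0.03. The dimmest Ciita probe set was also lower on replicate 1 in 4 other groups, by up to 2.81. The probe sets that represent H2-Aa and H2-Ab1 had gaps of -0.26 and -0.01 on that array. Probe sets of the types that represent H2-Aa and H2-Ab1 can share probes with similar transcripts, so their values may hold signal of related genes. Some of the probe sets low on that array are of these types too, so the type does not set the representatives apart. Where each probe set lies along its transcript is not given in the sources used here. With the probe sets low on MZ WT replicate 1 the MZ hom minus WT differences were 0.71 for H2-Aa and 0.54 and 0.56 for H2-Ab1, against -0.00 and -0.12 for the representatives.

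**Figure D5:**
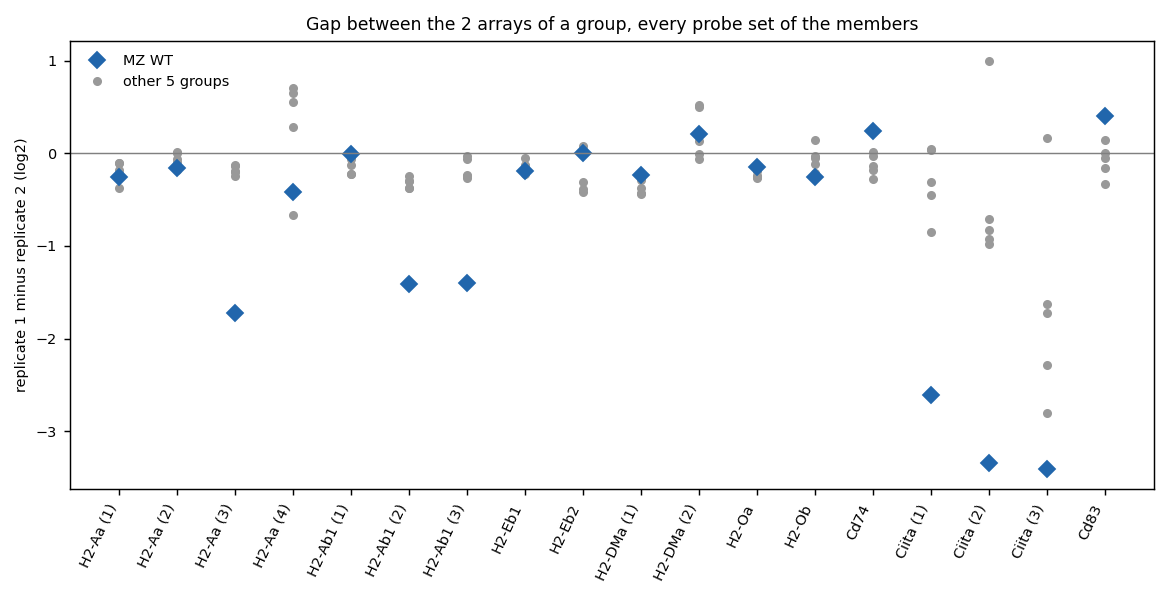
Replicate 1 minus replicate 2 (y axis, log2) for each of the 18 probe sets of the members, numbered within a gene by falling mean, with MZ WT as diamonds and the other 5 groups as grey points. The 3 Ciita probe sets, H2-Aa (3) and H2-Ab1 (2) and (3) have MZ WT diamonds below -1.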

How the data were processed

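The authors deposited a log2 value for each probe set, for which the submitters' processing notes name GCRMA with no version given in the sources used here. This method corrects background from probe sequences, normalises by quantiles and summarises probes, and dim values collect at a minimum, which was 2.21924 on MZ and 2.21262 on FO arrays. RNA was extracted with TRIZOL and labelled from the 3' end, per the labels' protocols.

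Of 45101 probe sets, 34958 had 1 gene symbol in the platform annotation, 932 several and 9211 none listed, controls included. No gene was named from a probe set with several symbols. Group means were fitted over all 12 arrays with limma 3.58.1 (lmFit, eBayes) in R 4.3.3, with 6 residual degrees of freedom, for the 9307 genes past the filter. Tests were two-sided, with Benjamini-Hochberg adjustment over all tested genes and calls at an adjusted p under 0.05. The model was tested on simulated data. The number of arrays limits the precision. Members and lists were chosen with earlier results of these data known. Named beyond the members are up to 6 pathway genes per comparison by smallest p, H2-Ea, and the 5 genes most like each of 3 patterns. T cell, erythroid, plasma cell, neutrophil and follicular marker lists were computed as well. The T cell list averaged 2.27 to 2.56, the erythroid 2.21 to 2.23, the plasma cell 6.13 to 7.12 and the follicular list 9.40 to 11.08 on MZ and 11.84 to 12.56 on FO arrays.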

Additional observations from a re-analysis of the deposited data

How the results depend on the processing

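The alternatives were no filter, the mean over a gene's probe sets, trended and robust moderation, quantile normalisation over all 12 arrays, a replicate block, fewer arrays in the model, and each array left out in turn. Of 1070 recomputed values of tested member differences, 22 lost and 17 gained a call, and 55 changed direction. The count of members called between MZ and FO WT cells, 3, became 5 with the replicate block (H2-Eb2 and H2-DMa gained the call, and H2-DMa gained it in het and hom cells too), 0 with the 4 arrays of these groups alone, and 1 to 3 with an array left out. For MZ against FO het cells the 2 members became 1 after quantile normalisation, where H2-Ob lost the call (limma adjusted p = 0.0868), and 1 to 3 with an array left out. For loss of 1 allele in MZ cells the 0 became up to 2, and for the interaction the 0 became up to 1, both without MZ WT replicate 2. Members negative in both cell types with homozygous deletion, 7, were 5 to 9 with an array left out. Ciita in MZ cells ranged from -0.21 to 2.40 for het minus WT and from -0.082 to 2.53 for hom minus WT with an array left out, the lowest without MZ WT replicate 1. With the mean over probe sets, H2-Ab1 changed direction between MZ and FO in hom (-0.182), het (-0.234) and WT cells (-0.651), for het minus WT in MZ (0.40) and for the interaction (0.469), and so did H2-Aa (-0.189) and H2-DMa (-0.083) for het minus WT in FO. After quantile normalisation H2-Oa between MZ and FO hom cells was 0.193, Ciita for het minus WT in FO -0.03 and H2-Ab1 for the interaction 0.026. For H2-Ab1 the hom minus WT difference averaged over MZ and FO, -0.12, was 0.093 with the mean over its probe sets, 2 of which were low on MZ WT replicate 1.

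Counts over all genes moved too. With no filter, 7796 genes in hom, 8096 in het and 8089 in WT cells were called between MZ and FO cells, against 1774, 2159 and 2066. Without the filter, genes at the minimum are tested too, such as Xcr1, at 2.2126 on all FO and 2.2192 on all MZ arrays. These calls are therefore not read as differences in expression, and the part of such genes in the counts was not tested. With the 4 WT arrays alone the WT count was 604. Without MZ WT replicate 2 the count for loss of 1 allele in MZ cells was 415, against 1, and that for the interaction 107, against 1. Deviations of same-numbered arrays correlated at -0.26 to 0.77 over the 15 pairs of groups (8 above 0.1), so the numbers were not taken to pair samples. That does not show that same-numbered arrays share no effect.

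Small differences changed direction with an array left out. Between MZ and FO cells the ranges were -0.138 to 0.117 for H2-Oa in hom, and in het -0.068 to 0.149 for H2-Ab1, -0.185 to 0.035 for H2-Eb1 and -0.127 to 0.136 for H2-Oa. For het minus WT in FO they were -0.157 to 0.211 for H2-Aa, -0.141 to 0.077 for H2-Ab1, -0.137 to 0.083 for H2-Eb1, -0.167 to 0.275 for H2-DMa, -0.121 to 0.029 for H2-Ob, -0.171 to 0.108 for Cd74, -0.423 to 0.429 for Ciita and -0.323 to 0.008 for Cd83. For het minus WT in MZ they were -0.025 to 0.231 for H2-Aa, -0.216 to 0.001 for H2-Ab1, -0.149 to 0.278 for H2-DMa, -0.017 to 0.246 for H2-Oa and -0.164 to 0.083 for Cd74. For the interaction they were -0.032 to 0.224 for H2-Aa, -0.115 to 0.103 for H2-Ab1, -0.08 to 0.297 for H2-DMa, -0.23 to 0.026 for H2-Ob, -0.038 to 0.24 for Cd74 and -0.364 to 0.037 for Cd83. None of the differences in this paragraph had passed the test with all arrays. The other pathway genes were refitted without MZ WT replicate 1 between MZ and FO WT cells, an alternative chosen after seeing the data. There Nfyc (-0.294), Creb1 (0.042), Ctsl (-0.542) and Cd37 (-0.254) changed direction, and H2-Ea went from -0.925 to -1.45. Apart from MZ WT replicate 1 no MZ array reached 4 for H2-Ea, which is then among the tested genes through its FO arrays, so no call is read from it.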
